A study of Caenorhabditis elegans with 16 samples.

Results

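The genes described here are zip-2 and cebp-2, which encode transcription factors of the worm's defence against infection, and irg-1, irg-2, irg-4, irg-5 and irg-6, 5 infection response genes. They were taken by symbol and number 7 of the 23758 genes counted. irg-1 was selected on its levels in these libraries, which were high in hsf-1 OE against wildtype and lower again in the double strain against hsf-1 OE. The irg-1 values are therefore a description with no test throughout. RNA was sequenced from whole Caenorhabditis elegans young adults (day 1 of adulthood) kept on OP50 bacteria at 20 °C, in 4 genotypes with 4 replicate libraries each. The double strain, hsf-1 OE; ubql-1(tm1574), was made by crossing the other 2 mutant strains. hsf-1 OE is a single integrated line that expresses extra hsf-1, the heat shock factor gene, from the broadly active sur-5 promoter and tdTomato from the pharyngeal myo-2 promoter. ubql-1(tm1574) is an outcrossed deletion allele of ubiquilin-1 from which a shortened mRNA is still made. Wildtype was the N2 strain. Each library is a pool of animals, and the labels do not say whether replicates came from separate cultures, so p-values measure the spread between these libraries.

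Worms feed on bacteria, and the cells of the intestine are a main site of contact with pathogens. In the intestine, ZIP-2, a bZIP transcription factor, acts with a second bZIP protein, CEBP-2, to induce irg-1 during infection with Pseudomonas aeruginosa. The same response starts when translation in the host is blocked, because upstream open reading frames in the zip-2 mRNA normally keep the protein low. irg-2 is also induced through ZIP-2, while irg-4, irg-5 and irg-6 are known mainly as targets of the p38 kinase PMK-1, which acts in parallel. None of the animals sequenced here was infected.

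The 16 libraries held between 18202151 and 30524762 counts each (median 22241519). The ubql-1 mRNA was at 1373 ± 102 normalized counts in the double strain and 1788 ± 124 in ubql-1(tm1574), against 3779 ± 256 in hsf-1 OE and 4055 ± 106 in wildtype (SD, n = 4 each). By the means, hsf-1 mRNA was above wildtype in the double strain and below it in hsf-1 OE, where it went against the label. It was at 2828 ± 362 normalized counts in the double strain and 1994 ± 368 in hsf-1 OE, against 2288 ± 52.0 in ubql-1(tm1574) and 2412 ± 137 in wildtype (SD, n = 4 each). Both ranges, 2334 to 3136 and 1673 to 2496, overlapped with the 2318 to 2608 of wildtype, and the difference was not tested. Its direction depends on the scaling, since 3 housekeeping genes together had a mean of 8395 in hsf-1 OE and 11710 in wildtype. The strain names used below are therefore those of the labels, and each direction given for hsf-1 OE refers to libraries labelled so. Normalized counts were scaled by TMM to the mean effective size of the 16 libraries. A paired fit, with replicate number as a block, is given for these genes wherever it changed a call.

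Measured per length, zip-2 was the most abundant of the 7 genes in every genotype. The mean FPKM of zip-2 was 121 in hsf-1 OE; ubql-1(tm1574), 142 in hsf-1 OE, 87.9 in ubql-1(tm1574) and 75.7 in wildtype. cebp-2 lay at 20.9, 20.2, 30.7 and 32.6 FPKM in the same order of genotypes. Wildtype levels of the response genes spread widely, from 18.6 FPKM for irg-4, 8.99 for irg-1 and 6.62 for irg-5 down to 1.41 for irg-2 and 0.0522 for irg-6. irg-1 reached 48.1 FPKM in hsf-1 OE, above the 30.5 of irg-4 and the 28.9 of irg-5 there, whereas in wildtype its mean lay below that of irg-4.

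**Figure D1:**
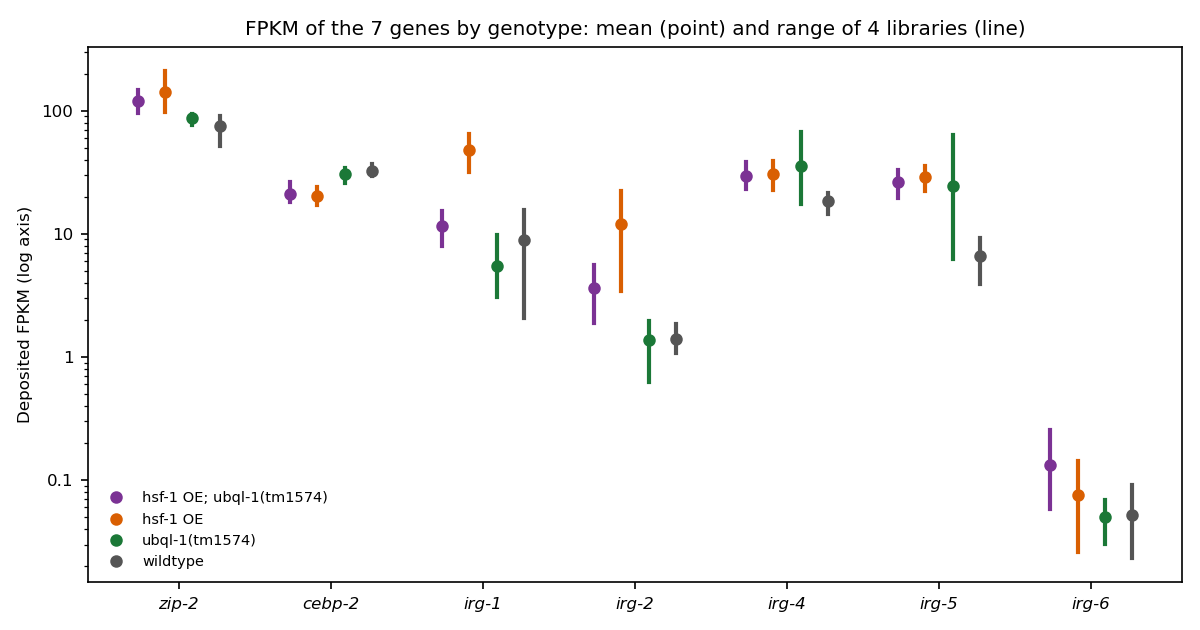
Deposited FPKM (log axis) of the 7 genes; points are means of 4 libraries, lines their range, and colours the 4 genotypes. zip-2 is highest throughout with genotype means from 75.7 to 142, irg-6 is lowest with all means at or below 0.133, and irg-1 stands out in hsf-1 OE at 48.1.

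zip-2 (K02F3.4, chromosome III, 833858 to 835814, plus strand, WBcel235) has 3 annotated transcripts of 4 to 6 exons. It had 3737, 4219, 5212 and 5766 normalized counts in replicates 1 to 4 of the double strain. In hsf-1 OE the 4 libraries had 3805, 4073, 6017 and 8137. In ubql-1(tm1574) they had 3008, 3611, 3726 and 3637, and in wildtype 2079, 3214, 3684 and 3284. All 8 libraries labelled with the hsf-1 transgene (hsf-1 OE and the double strain) lay above the other 8. The margin was narrow, with 3737 in the double strain against 3726 in ubql-1(tm1574). The double strain overlapped with hsf-1 OE, and ubql-1(tm1574) overlapped with wildtype. The share of all genes with such separations of genotypes was not determined, here or for the genes below. In edgeR's quasi-likelihood test, zip-2 was 2.01-fold higher in hsf-1 OE than in wildtype, a log2 fold change of 1.004 ± 0.27 (SE, Benjamini-Hochberg adjusted p = 0.00962). The value sits at the fold threshold of 1: of 14 alternatives 5 kept the call and 9 fell below that threshold. With the replicate block, the paired log2 fold change was 0.95 (adjusted p = 0.00171), and over 14 alternatives it lay between 0.63 and 1.36 with adjusted p from 0.00171 to 0.033. Leaving out wildtype replicate 1, or hsf-1 OE replicate 2, 3 or 4, gave 0.85, 0.99, 0.83 and 0.63. Scaling moved these values: the median of all genes was 0.285 in this comparison, 0.11 with RLE normalization and 0.63 when libraries were scaled to 3 housekeeping genes, and zip-2 lay 0.72, 0.70 and 0.73 above it. In whole animals a change in cell number and a change in RNA per cell cannot be told apart.

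Between the double strain and hsf-1 OE, the zip-2 log2 fold change was -0.25 ± 0.26 (SE, adjusted p = 0.779), with a 95% interval from -0.83 to 0.33. Against ubql-1(tm1574) the double strain was higher by 0.44 ± 0.22 (SE, adjusted p = 0.0987), and against wildtype by 0.63 ± 0.22 (SE, adjusted p = 0.0177), under the fold threshold. In ubql-1(tm1574) zip-2 differed from wildtype by 0.19 ± 0.15 (SE, adjusted p = 0.382), with an interval from -0.14 to 0.52. The annotation used to find neighbours has a longer zip-2, from 832982 to 835814. A long noncoding RNA gene, linc-37, and K02F3.15 overlap this longer form on its own strand. They end at 833347 and 833609, before the start of the counted zip-2 at 833858. On the other strand dos-3, which starts at 835751, overlaps the end of both forms. Their counts reached at most 25, 13 and 10 in a library, against a lowest count of 1730 for zip-2. The sources used here do not give the strand setting of the counting. Reads from zip-2 and dos-3 can therefore not be told apart in the stretch they share, from 835751 to 835814.

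cebp-2 (C48E7.11, chromosome I, 6253019 to 6253583, plus strand) encodes the partner of ZIP-2 in 3 exons and moved the other way. Its normalized counts were 304, 232, 219 and 211 in the double strain and 275, 243, 208 and 196 in hsf-1 OE. They were 304, 402, 380 and 353 in ubql-1(tm1574) and 399, 450, 360 and 348 in wildtype. The libraries of hsf-1 OE and of the double strain all lay below those of the 2 other genotypes, by a narrow margin at replicate 1 of the double strain and of ubql-1(tm1574). The log2 fold change was -0.62 ± 0.14 in hsf-1 OE against wildtype (SE, adjusted p = 0.00314), -0.58 ± 0.15 in the double strain against ubql-1(tm1574) (SE, adjusted p = 0.00469) and -0.69 ± 0.15 in the double strain against wildtype (SE, adjusted p = 0.000657). All 3 values were below the fold threshold, and when libraries were scaled to the housekeeping genes the first was -0.28 (adjusted p = 0.0725). For the double strain against hsf-1 OE it was 0.04 ± 0.15 (SE, adjusted p = 0.95), with an interval from -0.29 to 0.37. The value for ubql-1(tm1574) against wildtype was -0.11 ± 0.12 (SE, adjusted p = 0.546).

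**Figure D2:**
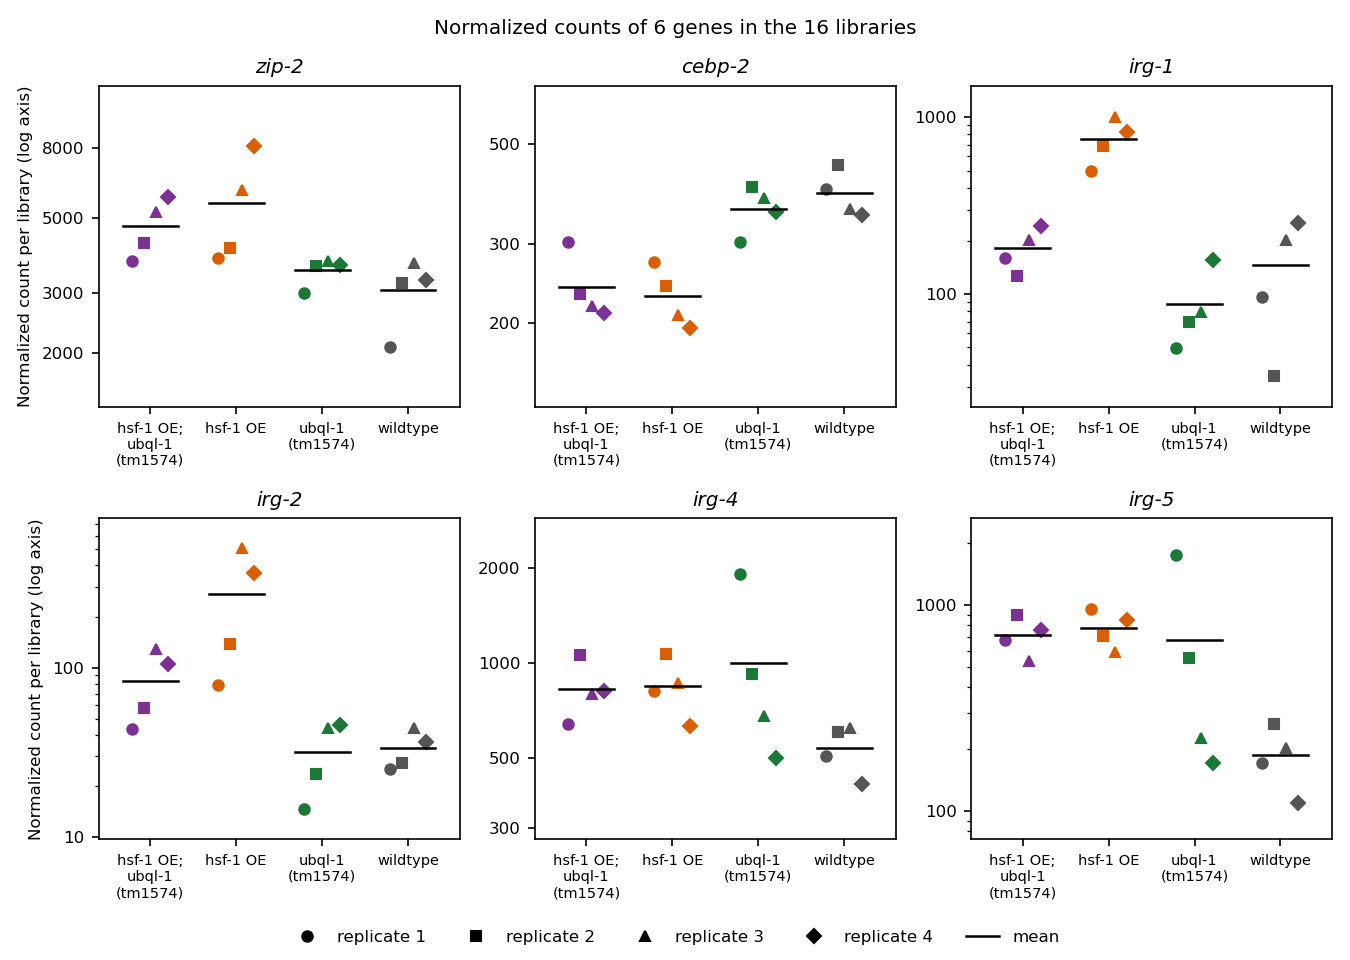
Normalized counts (log axes) of 6 genes in each of the 16 libraries; symbols give the replicate number, colours the genotype and bars the mean of 4. zip-2 is higher and cebp-2 lower in both genotypes labelled with the hsf-1 transgene, irg-1 is highest in hsf-1 OE (498 to 1001), and replicate 1 of ubql-1(tm1574) stands high for irg-4 and irg-5.

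irg-1 (C07G3.2, chromosome V, 3523585 to 3524575, plus strand, 4 exons) is the gene by which the response to P. aeruginosa through ZIP-2 is usually followed. It had 160, 127, 202 and 242 normalized counts in the 4 libraries of the double strain. hsf-1 OE had 498, 688, 1001 and 821. ubql-1(tm1574) had 49.3, 69.5, 79.7 and 156, and wildtype 96.2, 34.6, 201 and 254. The 4 libraries of hsf-1 OE lay above the other 12, and the remaining 3 genotypes overlapped with each other. By the means, hsf-1 OE stood 4.12 times above the double strain, 5.13 times above wildtype and 8.49 times above ubql-1(tm1574). The fitted log2 fold changes, given as a description, were 2.51 ± 0.51 (SE) for hsf-1 OE against wildtype and -2.07 ± 0.27 (SE) for the double strain against hsf-1 OE. They were 1.06 ± 0.46 (SE) for the double strain against ubql-1(tm1574) and 0.31 ± 0.44 (SE) for the double strain against wildtype. Over the alternatives the first ran from 2.17 to 2.91 and the second from -2.25 to -1.90.

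Between ubql-1(tm1574) and wildtype the fitted irg-1 log2 fold change was -0.74 ± 0.55 (SE), also given as a description. It ran from -1.14 to -0.32 over 14 alternatives. The wildtype libraries alone spread from 34.6 to 254, and replicate 2 of wildtype was the lowest of all 16 libraries for this gene.

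irg-2 (C49G7.5, chromosome V, 4042404 to 4043600, plus strand, 4 exons) followed irg-1 in order, at lower counts. It had 43.6, 58.0, 128 and 105 normalized counts in the double strain and 78.8, 139, 506 and 361 in hsf-1 OE. There were 14.6, 23.6, 44.1 and 45.6 in ubql-1(tm1574) and 25.2, 27.4, 44.3 and 36.5 in wildtype. hsf-1 OE did not overlap with wildtype or ubql-1(tm1574), the double strain overlapped with hsf-1 OE, and ubql-1(tm1574) lay across the wildtype range. Relative to wildtype, irg-2 rose 9.10-fold in hsf-1 OE, a log2 fold change of 3.19 ± 0.59 (SE, adjusted p = 0.00128), and it passed both thresholds under each of 14 alternatives. In the double strain against hsf-1 OE the log2 fold change was -1.72 ± 0.58 (SE), which missed the threshold after adjustment over all genes in the edgeR fit (adjusted p = 0.278). All 4 same-numbered pairs were lower in the double strain, by -0.85, -1.26, -1.98 and -1.79 on the log2 scale. With the replicate block the paired value was -1.57 (adjusted p = 0.01), past both thresholds, and over 14 alternatives adjusted p ran from 0.01 to 0.627.

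The double strain still had more irg-2 than ubql-1(tm1574) and wildtype. Its log2 fold change was 1.39 ± 0.53 against ubql-1(tm1574) (SE, adjusted p = 0.0365) and 1.33 ± 0.53 against wildtype (SE, adjusted p = 0.0335), both past the thresholds. Neither of these 2 calls held in every fit with 1 library left out. The first was lost without replicate 1 or 2 of ubql-1(tm1574) or replicate 3 or 4 of the double strain, with log2 fold changes from 1.11 to 1.27 and adjusted p from 0.0865 to 0.114 in edgeR. The second was lost without replicate 1, 2 or 4 of wildtype or replicate 3 or 4 of the double strain, with 1.05 to 1.35 and adjusted p from 0.0629 to 0.108. Between ubql-1(tm1574) and wildtype, irg-2 differed by -0.05 ± 0.36 (SE, adjusted p = 0.935), with an interval from -0.87 to 0.76, and its sign changed with the scaling.

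irg-4 (F08G5.6, chromosome IV, 12435827 to 12438274, plus strand, 7 exons) and irg-5 (F35E12.5, chromosome V, 13737007 to 13738471, minus strand, 7 exons) encode proteins with CUB-like domains. For both, the difference between the double strain and hsf-1 OE was smaller than the spread of the libraries. irg-5 had 679, 898, 537 and 761 normalized counts in the double strain and 955, 713, 596 and 851 in hsf-1 OE. In ubql-1(tm1574) it had 1766, 557, 226 and 172, and in wildtype 171, 265, 203 and 110. The double strain and hsf-1 OE overlapped with each other and both lay above wildtype, while ubql-1(tm1574) ran from the wildtype range to the highest library of all. irg-5 rose 4.58-fold in hsf-1 OE against wildtype, with a log2 fold change of 2.19 ± 0.25 (SE, adjusted p = 0.000167). It rose 3.86-fold in the double strain against wildtype, with 1.95 ± 0.54 (SE, adjusted p = 0.00443). Between the double strain and hsf-1 OE it differed by -0.14 ± 0.17 (SE, adjusted p = 0.83), with an interval from -0.52 to 0.25.

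For ubql-1(tm1574) against wildtype, irg-5 had a log2 fold change of 1.88 ± 0.68 (SE), which missed the threshold after adjustment in edgeR (adjusted p = 0.0965). The same-numbered pairs differed by 3.37, 1.07, 0.15 and 0.65, so replicate 1 carried most of the difference, and without that library the value was 0.76. Replicate 1 also decided the comparison of the double strain with ubql-1(tm1574). The log2 fold change was 0.08 ± 0.51 over all libraries (SE, adjusted p = 0.902) and 1.17 without replicate 1 of ubql-1(tm1574), which passed both thresholds (adjusted p = 0.0156, against 0.0156 to 0.99 over the 21 alternatives).

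irg-4 had 641, 1060, 794 and 814 normalized counts in the double strain and 813, 1064, 862 and 632 in hsf-1 OE. Its counts were 1911, 921, 677 and 499 in ubql-1(tm1574), and 507, 605, 623 and 415 in wildtype. As for irg-5, replicate 1 of ubql-1(tm1574) was the highest of the 16 libraries, and both hsf-1 OE and the double strain lay above wildtype without overlap. The log2 fold change was 0.79 ± 0.18 in hsf-1 OE against wildtype (SE, adjusted p = 0.00361), below the fold threshold except when libraries were scaled to the housekeeping genes, where it was 1.14. In ubql-1(tm1574) against wildtype it was 0.91 ± 0.37 (SE, adjusted p = 0.123), and 0.37 without replicate 1 of ubql-1(tm1574). Between the double strain and hsf-1 OE it was -0.05 ± 0.19 (SE, adjusted p = 0.948), with an interval from -0.47 to 0.36, and in the double strain against wildtype 0.63 ± 0.31 (SE, adjusted p = 0.0823).

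irg-6 (C32H11.1, chromosome IV, 12913103 to 12914969, minus strand, 8 to 9 exons), also a gene with a CUB-like domain, was close to the limit of detection. It had 2, 11, 6 and 5 counts in the double strain, and 1, 6, 2 and 3 in hsf-1 OE. There were 2, 1, 2 and 2 counts in ubql-1(tm1574) and 3, 2, 1 and 1 in wildtype. It passed the filter on low counts in none of the comparisons and no difference was detectable at this depth.

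Counted over comparisons, 5 of the 6 genes other than irg-1 passed the filter on low counts in each. A gene was called where the adjusted p was below 0.05 and the log2 fold change beyond 1 in either direction. In hsf-1 OE against wildtype 3 of the 5 were called (zip-2, irg-2 and irg-5), all higher, against 26.2% of all 14794 genes tested and 22.6% called higher. DESeq2 and the replicate block each called 2 of them, without zip-2, and scaling to the housekeeping genes called 4, with irg-4. All 5 had an adjusted p under 0.05 at any fold change, but so did 67.3% of all genes, so that count says little of these genes. In ubql-1(tm1574) against wildtype edgeR called 0 of the 5 (background 2.41%), with 2 at an unadjusted p under 0.05 and 0 called by DESeq2. For the double strain against hsf-1 OE edgeR called 0 of the 5 (background 0.611%), with 1 at an unadjusted p under 0.05, 0 called by DESeq2 and 1, irg-2, with the replicate block. In the double strain against ubql-1(tm1574) 1 of the 5 was called, irg-2, against 13.0% of genes, and 2 of the 5 had an adjusted p under 0.05, against 53.3%. Against wildtype, 2 of the 5 were called in the double strain, irg-2 and irg-5, against 24.3%, and 4 of the 5 had an adjusted p under 0.05, against 69.3%. With only 5 genes tested, no difference from the background shares is read from these counts.

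**Figure D3:**
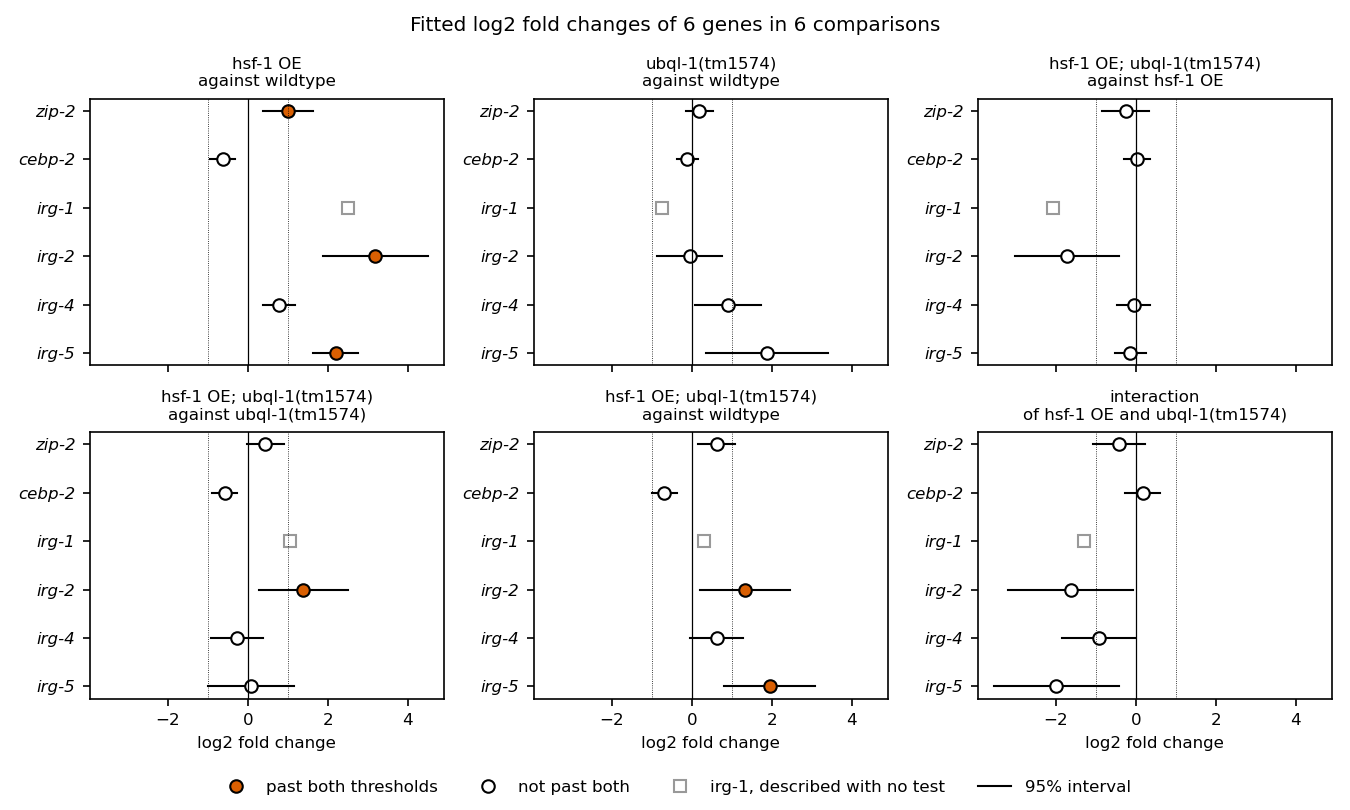
Fitted log2 fold changes of 6 genes (x axis) in 6 comparisons, with 95% intervals not adjusted for the number of genes; filled points passed both thresholds, dotted lines mark a log2 fold change of 1 in either direction, and grey squares are irg-1, described with no interval. irg-2 and irg-5 lie near 3.19 and 2.19 in hsf-1 OE against wildtype. None of the 5 genes tested passed both thresholds in the double strain against hsf-1 OE in these fits, which did not pair the libraries. With the replicate block irg-2 did.

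Whether the difference that goes with hsf-1 OE changed in the ubql-1(tm1574) background was asked by an interaction term in a model of all 16 libraries. The term was -1.63 ± 0.74 for irg-2 (SE, adjusted p = 0.243), -0.93 ± 0.44 for irg-4 (SE, adjusted p = 0.254) and -1.99 ± 0.74 for irg-5 (SE, adjusted p = 0.165) in edgeR. For zip-2 it was -0.41 ± 0.31 (SE, adjusted p = 0.481) and for cebp-2 0.18 ± 0.21 (SE, adjusted p = 0.67). edgeR called 0 of the 5, against 0.55% of all genes, with 3 at an unadjusted p under 0.05 and 0 called by DESeq2. With the replicate block the paired term of irg-2 was -1.41 (adjusted p = 0.0271) and passed both thresholds, while over 21 alternatives its adjusted p ran from 0.0271 to 0.457. The term for irg-1 was -1.29 ± 0.63 (SE), given with no test. The terms of irg-4 and irg-5 moved with replicate 1 of ubql-1(tm1574), the highest library for both, and without it they were -0.41 and -0.89.

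Within genotypes, zip-2, irg-1 and irg-2 varied together with the replicate number. In each of the 4 genotypes, replicates 3 and 4 lay above replicates 1 and 2 for all 3 genes. The ratio of the 2 means was 1.38, 1.80, 1.11 and 1.32 for zip-2 in hsf-1 OE; ubql-1(tm1574), hsf-1 OE, ubql-1(tm1574) and wildtype. In the same order it was 1.55, 1.54, 1.98 and 3.48 for irg-1, and 2.29, 3.99, 2.35 and 1.53 for irg-2. irg-5 did not share this order, with ratios of 0.823, 0.868, 0.171 and 0.717, nor did irg-4, with 0.945, 0.796, 0.415 and 0.933. cebp-2 went the other way without overlap in all genotypes but ubql-1(tm1574), with ratios of 0.802, 0.781, 1.04 and 0.834. The share of all genes with such a split was not determined, so it is not read as particular to zip-2, irg-1 and irg-2. The labels give no date or batch for the replicate numbers. Summed cuticle and moulting genes (12 genes) also differed by replicate, at 4071, 5457, 11240 and 8937 normalized counts in the double strain and 2017, 4539, 7930 and 24530 in hsf-1 OE. They had 2663, 1490, 3847 and 2652 in ubql-1(tm1574) and 1168, 1159, 1356 and 1193 in wildtype, where irg-1 had its highest ratio. These sums were not in the same order by replicate in every genotype. They were higher in replicates 3 and 4 than in 1 and 2 in all genotypes except ubql-1(tm1574). Sperm sums were higher in replicates 3 and 4 in all genotypes except hsf-1 OE, and intestine marker sums in all except the double strain. Oocyte and eggshell sums were lower there in all except wildtype, with 118400, 94300, 66270 and 64770 in hsf-1 OE. Sums of the other P. aeruginosa response genes, described below, were higher there in every genotype. The part of all these sums in the values of zip-2, irg-1 and irg-2 was not tested.

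To find genes that shared the irg-1 pattern, the log2 of the normalized count plus 1, relative to its wildtype mean, was compared with that of irg-1 over the 16 libraries for 11936 genes with a mean of at least 50. The measure was the root mean square difference, with a median of 1.62 over all genes. The closest was oac-32, a member of an acyltransferase family, at 0.489, followed by the ABC transporters pgp-5 (0.57) and pgp-6 (0.58), then Y87G2A.16 (0.59) and the UDP-glucuronosyltransferase gene ugt-26 (0.61). F43C11.3, the collagen gene col-45, C49G7.12, Y39A3A.4 and the C-type lectin gene clec-4 completed the 10, at 0.68 to 0.70. irg-2 came next, at rank 11 (0.72). zip-2 was at rank 1392 (1.17) and irg-4 at 5073 (1.52), both nearer than the median gene, and irg-5 at 6781 (1.71) and cebp-2 at 10111 (1.999) were farther than it. Since these libraries selected irg-1 and the ranking, the values are a description.

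Of these genes oac-32 had 66.0 ± 26.5 normalized counts in the double strain, 278 ± 97.0 in hsf-1 OE, 35.98 ± 3.05 in ubql-1(tm1574) and 43.1 ± 27.2 in wildtype (SD, n = 4 each). pgp-5 had 1359 ± 285, 3534 ± 1290, 738 ± 221 and 672 ± 396 (SD, n = 4 each), and pgp-6 had 1483 ± 349, 3823 ± 1471, 679 ± 219 and 718 ± 482 (SD, n = 4 each). The collagen gene col-45 had 44.5 ± 16.1 in the double strain and 140 ± 15.2 in hsf-1 OE (SD, n = 4 each). For irg-1 the double strain was at 1.25 times the wildtype mean, with overlap. pgp-5, pgp-6 and pgp-7 are related copies, and how reads matching more than 1 of them were counted is not given in the sources used here.

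**Figure D4:**
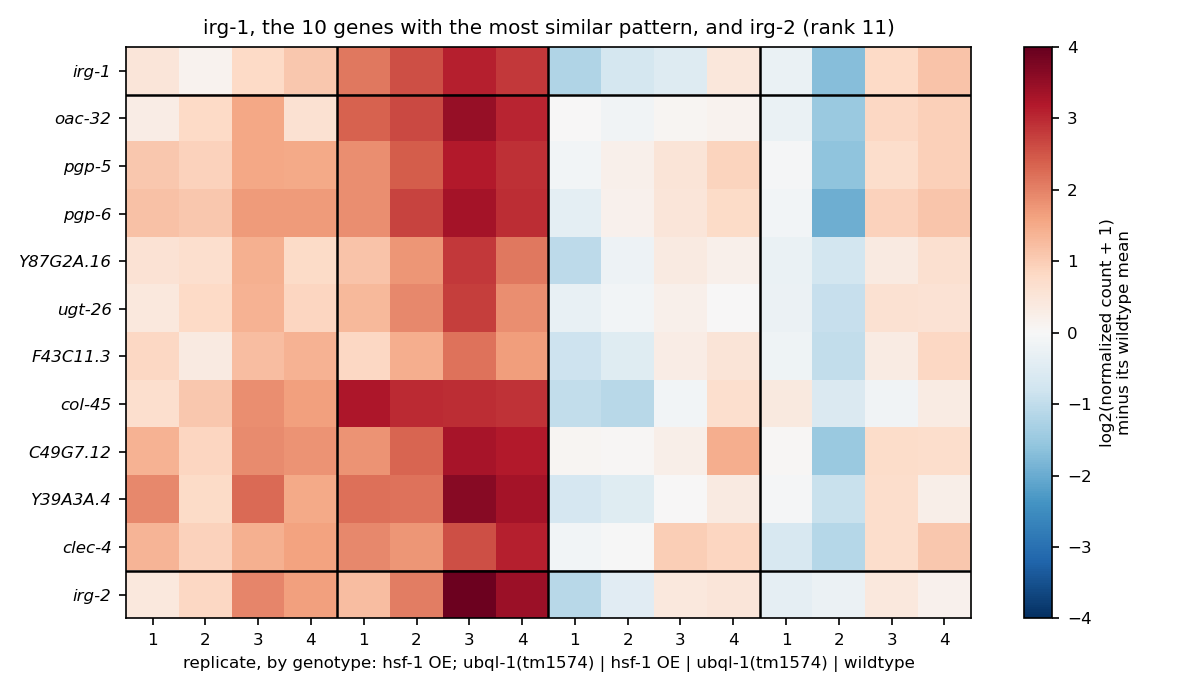
Each cell is 1 library's log2(normalized count + 1) minus the gene's wildtype mean (colour), for irg-1, the 10 genes nearest to it and irg-2, with libraries grouped by genotype. All 12 genes have their highest genotype mean in hsf-1 OE and the next in the double strain, and all 12 lie below 0 in wildtype replicate 2.

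The wider responses around irg-1 were described by counts and medians over lists chosen with earlier results known. Adjusted p values of single genes in these lists are part of that description. The first list held 7 other genes known to respond to P. aeruginosa or blocked translation. In hsf-1 OE against wildtype 6 of 7 were called higher (85.7%, against 26.2% of all genes), with a median log2 fold change of 2.55 against 0.285 over all genes. They included oac-32 (2.83), pgp-6 (2.57), pgp-5 (2.55) and pgp-7 (2.47), and F11D11.3 (3.69). The glutathione S-transferase gene gst-38 completed the 6, and irg-3 was not called at 0.75; these 2 are named after their values were seen. All 7 values were negative in the double strain against hsf-1 OE, with a median of -1.40 against -0.01. Of the 7, 1 was called (background 0.611%), oac-32 at -2.09 ± 0.34 (SE, adjusted p = 0.0217 in edgeR). oac-32, pgp-5 and pgp-6 are also the genes nearest to irg-1, which was selected as lower in the double strain. Their adjusted p values here are no independent support. With the replicate block 4 of the 7 were called in that comparison, as with DESeq2. The 7 values were unlike in size. gst-38 had -0.39 (adjusted p = 0.377 in edgeR) and irg-3 -0.16 (adjusted p = 0.745 in edgeR). pgp-5 had -1.41 (adjusted p = 0.056), pgp-6 -1.40 (adjusted p = 0.0821) and pgp-7 -1.81 (adjusted p = 0.0906), while F11D11.3 had -0.01 (adjusted p = 0.998) with 39.2 and 38.4 mean normalized counts in the double strain and in hsf-1 OE.

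Other intestinal infection response genes were mixed. Of 12, of which irg-3 is also in the first list, in hsf-1 OE against wildtype, 2 were called higher and 1 lower (25.0%, against 26.2%). The C-type lectin gene clec-60 rose by 3.61 ± 0.96 and the lysozyme gene lys-2 by 1.51 ± 0.30, and dod-24, another gene with a CUB-like domain, fell by 1.73 ± 0.22 on the log2 scale (SE). Of the 12, 1 was called in the double strain against hsf-1 OE (background 0.611%). It was sysm-1, a commonly used reporter of PMK-1 activity, which was higher by 1.46 ± 0.24 (SE, adjusted p = 0.0264 in edgeR). The mean of sysm-1 was 242 normalized counts in the double strain, 86.9 in hsf-1 OE, 165 in ubql-1(tm1574) and 74.7 in wildtype. In ubql-1(tm1574) against wildtype 1 of 11 was called (background 2.41%), dod-24 at -1.02 ± 0.16 (SE, adjusted p = 0.0147 in edgeR). DESeq2 and the paired fit with the replicate block each called 2, the second being sysm-1 at 1.14 (adjusted p = 0.0105) and 1.23 (adjusted p = 0.0243), against 1.15 (adjusted p = 0.0575) without the block.

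Of 11 genes of the p38 pathway 1 was called in hsf-1 OE against wildtype, pmk-1 itself, the kinase, at 1.04 ± 0.12 (SE, adjusted p = 0.000167 in edgeR), against 26.2% of all genes. That call was not made by DESeq2, which called 0 of the 11. The mean of pmk-1 was 725 normalized counts in the double strain, 728 in hsf-1 OE, 373 in ubql-1(tm1574) and 390 in wildtype. The other 10 had log2 fold changes between -0.36 and 0.69. For the double strain against hsf-1 OE, edgeR called 0 of the 11 (background 0.611%), as did DESeq2, with 0 at an unadjusted p under 0.05.

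Among 26 other bZIP genes, of which skn-1 and atf-7 are also in the p38 list, 23 were tested in hsf-1 OE against wildtype and 6 were called, all higher (26.1%, against 26.2% of all genes). Those with the largest values were atf-8 (2.05 ± 0.59), atf-2 (1.62 ± 0.38), zip-10 (1.35 ± 0.49), zip-5 (1.25 ± 0.46) and zip-1 (1.07 ± 0.15; SE). The zip-2 value of 1.004 lay below these 5. Between the double strain and hsf-1 OE edgeR called 0 of 23 (background 0.611%), with 1 at an unadjusted p under 0.05 and 0 called by DESeq2.

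Genes that lie next to the 7 were examined, since reads and regulation can be shared. Of 28 annotated genes with counts within 5000 bases, 19 were tested in hsf-1 OE against wildtype and 4 were called (21.1%, against 26.2%). Near irg-2, C49G7.12 (2241 bases away, same strand), which is also among the 10 genes most like irg-1, rose by 2.71 ± 0.50 and C49G7.10 (160 bases away, other strand) by 1.77 ± 0.53 (SE). Their means were 163 and 364 normalized counts in the double strain, 382 and 499 in hsf-1 OE, 83.0 and 181 in ubql-1(tm1574) and 64.9 and 165 in wildtype. F35E12.9, 2847 bases from irg-5, rose by 1.67 ± 0.38, and ceeh-1, an epoxide hydrolase gene 705 bases from zip-2, by 1.08 ± 0.26 (SE). The 2 genes that follow cebp-2 on its strand, lpd-2 at 117 bases and let-611 at 1451 bases, had log2 fold changes of -0.57 ± 0.09 and -0.49 ± 0.08 (SE), beside -0.62 for cebp-2. On the other side, cof-2 (206 bases, same strand) had 0.71 ± 0.32 and C48E7.6 (3222 bases, same strand) 0.54 ± 0.22 (SE), and none of these 4 was called. Next to irg-1, no gene with matched counts within 5000 bases had more than 18 counts in a library. A pseudogene 214 bases away and the noncoding RNA gene C07G3.13 were not matched to counts and so were not examined.

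The mRNA levels of tissue and moulting markers also differed between the strains, and cell numbers were not measured. In hsf-1 OE against wildtype 11 of 12 cuticle and moulting genes and 9 of 10 sperm genes were called higher, 8 of 10 oocyte and eggshell genes lower, and 1 of 12 intestine markers higher. Of all genes tested there, 26.2% were called and 22.6% called higher. The summed intestine markers ran from 147300 to 156500 normalized counts in the double strain, 165400 to 201100 in hsf-1 OE, 121800 to 137400 in ubql-1(tm1574) and 125400 to 133700 in wildtype. Oocyte and eggshell sums were 80080 to 119300, 64770 to 118400, 152600 to 178400 and 166200 to 232000 in the same order, and sperm sums 8681 to 10680, 9538 to 12780, 5391 to 8145 and 2200 to 5567. Cuticle and moulting sums were 4071 to 11240 in the double strain, 2017 to 24530 in hsf-1 OE, 1490 to 3847 in ubql-1(tm1574) and 1159 to 1356 in wildtype. None of the markers was at 0 in all libraries of a genotype. Between the double strain and hsf-1 OE, edgeR and DESeq2 each called 0 genes of all 4 lists, with 1 intestine, 0 cuticle, 1 oocyte and 2 sperm genes at an unadjusted p under 0.05. Only 0.611% of all genes were called there by edgeR, so 0 calls say little of these lists. The 3 housekeeping genes had a median log2 fold change of -0.38 in hsf-1 OE against wildtype. The part of these differences in the values of the 7 genes was not tested.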

How the data were processed

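Messenger RNA of the 16 libraries was captured on poly-dT beads and sequenced as paired-end reads. The authors aligned the reads with HISAT2 2.0.5 to WBcel235 and counted them with featureCounts 1.5.0-p3, as named in the submitters' processing notes, and deposited raw counts per gene in 3 tables of 8 libraries. The deposited FPKM values, made by the authors from the same reads, are per gene length and depth and were used only to set levels of different genes side by side. The strand setting is not given in the sources used here. The tables also hold 24 normalized per-library columns and the authors' fold changes and p-values, none of which were used. Genes missing from a table were set to 0 (4.57% of cells), and symbols were matched for 23180 of 23758 gene IDs.

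Tests used edgeR 4.0.16 (TMM, filterByExpr, quasi-likelihood F test, limma 3.58.1, R 4.3.3) with Benjamini-Hochberg adjustment over all genes. The 3 comparisons of the tables were fitted on their 8 libraries, and the others, with the interaction, on all 16. The p-values from edgeR and DESeq2 1.42.0 come from models across all genes. Tables and figures used Python 3.11.15, pandas 2.3.3, numpy 2.4.6, scipy 1.17.1 and matplotlib 3.10.9. The tests were checked on simulated data. Genes and lists were chosen with earlier results of these data known. Named beside the 7 genes were at most 5 called genes per list, the 10 nearest to irg-1, and annotated genes within 5000 bases.

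Same-numbered replicates deviated together, with lowest correlations of 0.106, 0.172 and 0.392 in the 3 table comparisons, all over 0.1, so numbers were taken to pair the libraries. Alternatives were the replicate block, DESeq2, RLE, scaling to 3 housekeeping genes, no filter, no fold threshold, 1 model of all libraries, and leaving out each library.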

Additional observations from a re-analysis of the deposited data

Results flagged for a closer look

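Among 28 groups of 4 libraries examined, 1 had a library far from the rest, and chance flags about 1 group in 20. For zip-2 in ubql-1(tm1574), replicate 1 had 3010 normalized counts, against 3610 to 3730 in the other 3 libraries.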

How the results depend on the processing

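Of 525 values of the 5 tested genes other than irg-1 under alternatives, 485 kept their direction and side of the thresholds, 18 lost and 6 gained a call, and 16 changed sign. Sign changes fell on differences that were small over all libraries. In ubql-1(tm1574) against wildtype irg-2 was at 0.0174 with housekeeping scaling, and ran from -0.27 to 0.18 without single libraries. In the double strain against hsf-1 OE cebp-2 was at -0.0226 with that scaling, and single libraries left out gave -0.0605 to 0.0986 for cebp-2, -0.413 to 0.018 for zip-2 and -0.175 to 0.0888 for irg-4. Against ubql-1(tm1574) the double strain had irg-4 at 0.0766 with that scaling and -0.50 to 0.24 without single libraries, and irg-5 at -0.24 to 1.17. The highest of these irg-5 values, without replicate 1 of ubql-1(tm1574), passed both thresholds, so that comparison was unstable.

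The number of all genes called in hsf-1 OE against wildtype was 3873, and 9960 with no fold threshold. For ubql-1(tm1574) against wildtype it was 342, and 538 with DESeq2, 779 with the replicate block and 1178 with no fold threshold. For the double strain it was 95 against hsf-1 OE (169 with DESeq2, 179 with the replicate block, 145 with no fold threshold), 2035 against ubql-1(tm1574) (3263 with housekeeping scaling, 8335 with no fold threshold) and 3800 against wildtype (10848 with no fold threshold). The interaction gave 86, and 547 with DESeq2 and 853 with the replicate block. Without single libraries these counts ran from 3430 to 4402, 42 to 739, 48 to 109, 1582 to 2268, 3522 to 4084 and 32 to 663. In hsf-1 OE against wildtype the split was 3341 higher and 532 lower, against 2869 and 890 with RLE and 4912 and 284 with housekeeping scaling.

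Of the 5 genes tested besides irg-1, the 3 called in hsf-1 OE against wildtype became 5 with no fold threshold, 4 with housekeeping scaling, 2 with DESeq2, RLE, no filter, 1 model of all libraries or the replicate block, and 2 to 3 without single libraries. In the double strain the 1 called against ubql-1(tm1574) became 2 with no fold threshold and 0 to 1 without single libraries, and the 2 called against wildtype became 4 with housekeeping scaling or no fold threshold and 1 to 2 without single libraries. With the replicate block, 1 was called against hsf-1 OE and 1 in the interaction, where 0 were called without it. Beyond zip-2 in hsf-1 OE against wildtype and irg-2 in these 2, the paired fit changed no other call of these genes. The causes were not tested. Depth limits irg-6, with at most 11 counts a library.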
